A study of Mus musculus with 29 samples.

Results

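The late neutrophil genes are 10 mouse genes that maturing neutrophils transcribe strongly: S100a8, S100a9, Ngp, Camp, Ltf, Lcn2, Cxcr2, Retnlg, Mmp8 and Mmp9. They were chosen by name, and each matched 1 of the 38924 Ensembl gene identifiers in the count table. Their RNA was followed through 29 RNA-seq libraries of bone marrow stem and progenitor cells that were sorted from C57BL/6 mice carrying a Dnmt3a mutation or serving as controls. The mice were young, and sampling took place 6 weeks after pIpC, a synthetic mimic of viral RNA that induces interferon. Mutant and control mice are described alike in strain, age class and pIpC, and the Dnmt3a allele, any Cre driver and the genotype of the controls are not given in the sources used here. The libraries comprised 3 mutant and 4 control LT-HSC (long-term haematopoietic stem cells), 4 mutant and 3 control ST-HSC (short-term haematopoietic stem cells), 4 mutant and 3 control MPP3, and 4 mutant and 4 control MPP4 (multipotent progenitors biased to myeloid and to lymphoid fates). The design text counts 3 mutant MPP3 libraries where the sample list holds 4, and the mutant ST-HSC titles give Dnmt3a without the word for mutant. The labels do not tie replicates to single animals. The spread behind the p-values is then only that between these libraries, which may be technical.

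Neutrophils mature in the bone marrow from committed myeloid progenitors, and their granule proteins are made in a fixed order. Primary granule proteins such as myeloperoxidase come at the promyelocyte stage, secondary (specific) granule proteins such as lactoferrin at the myelocyte and metamyelocyte stages, and gelatinase granule proteins later still, together with the receptors of the circulating cell. Stem cells and multipotent progenitors lie upstream of all these stages, and the bulk of late neutrophil RNA in marrow is known to come from the maturing cells. In a bulk library of sorted cells, a few cells with much of this RNA and many cells with little of it cannot be told apart, nor can fewer cells of a type and less RNA per cell.

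The 29 libraries held 6133994 to 10374672 counts each, and values are given as CPM, counts relative to the TMM-scaled library size. A floor of 3 counts corresponds to 0.288 to 0.564 CPM, a limit that covers counting error only, and values under it are at or near the noise of counting. Dnmt3a RNA ran from 92.2 to 222 CPM in mutant and from 81.9 to 167 CPM in control libraries, and whole-gene counts do not check which allele was read. The sort markers followed the labels in the controls: Flt3, the FLT3 ligand receptor, averaged 426.8 ± 35.1 CPM in MPP4 and 62.4 ± 10.3 in LT-HSC (SD, n = 4 each). Slamf1, a stem cell surface receptor, was at 0 in all 4 control MPP4 libraries and averaged 24.2 ± 7.22 CPM in control LT-HSC. Each description also carries a number, 1702, 1704, 1808 or 1819 in mutant and 1705, 1708, 1803 or 1804 in control libraries. What these numbers and their leading digits, 17 or 18, stand for is not given, but 2 leading labels in the column headers split the libraries the same way.

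3 of the 4 control LT-HSC libraries stood apart from all others for these genes. Summed over the 10 genes, control LT-HSC replicates 1, 2 and 3 had 12070, 4098 and 1791 CPM, and replicate 4 had 104.8 CPM. The 10 genes took 1.04% of all counts in control LT-HSC replicate 1 (95% exact Clopper-Pearson interval 1.03% to 1.04%) and 0.00512% in the lowest library, mutant MPP4 replicate 2. Outside control LT-HSC, the sum stayed between 55.0 and 680 CPM. The order of the group means was control LT-HSC at 4515 ± 5294 CPM (SD, n = 4), mutant ST-HSC at 320.9 ± 251, mutant MPP3 at 292.7 ± 266, control ST-HSC at 273.6 ± 136, mutant LT-HSC at 272 ± 197, control MPP3 at 257.9 ± 50.5, mutant MPP4 at 176.6 ± 136 and control MPP4 at 134.2 ± 59.1. Every pair of neighbours in this order had overlapping libraries.

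**Figure D1:**
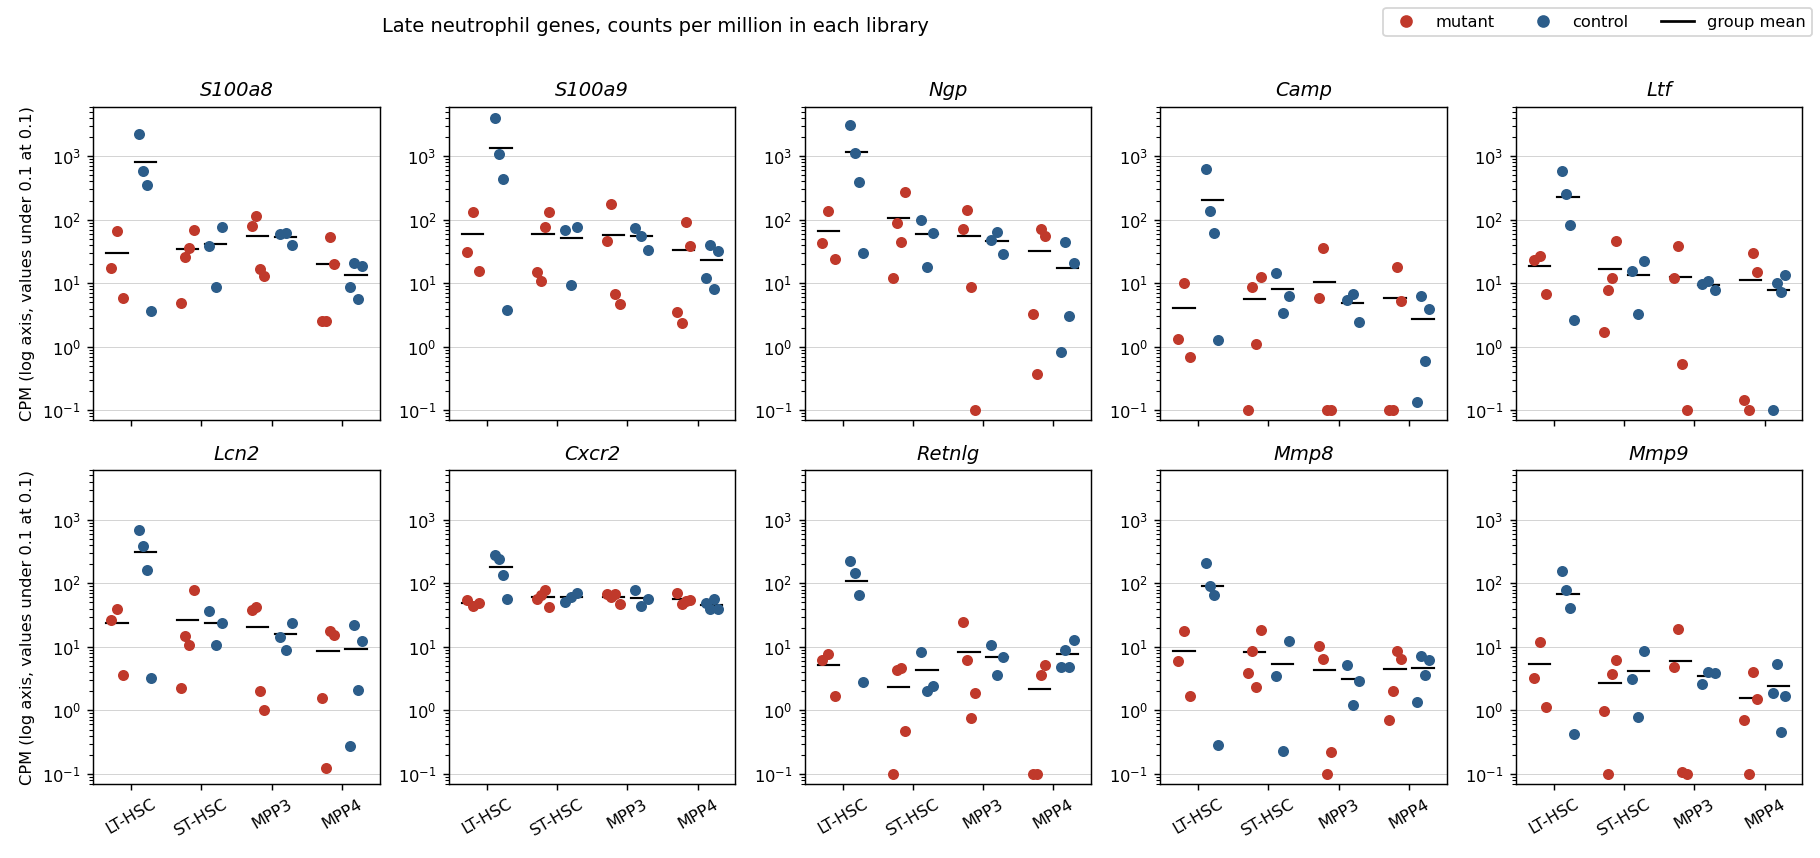
Levels (CPM, log axis) of the 10 late neutrophil genes in each of 29 libraries, mutant in red left of control in blue within each sorted population; bars are group means, and values under 0.1 are drawn at 0.1. 3 of the 4 control LT-HSC libraries lie above every other library for each gene, while Cxcr2 stays between 39.3 and 79.7 CPM in the other 26 libraries.

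The other RNA of those 3 libraries also differed from that of the other LT-HSC libraries for most lists. Neutrophil genes outside the 10 (26 genes, among them Ly6g, Lyz2 and Csf3r) summed to 331.9 to 346.8 CPM in mutant LT-HSC, against 5146, 3369 and 1338 CPM in control LT-HSC replicates 1, 2 and 3 and 313.9 CPM in replicate 4. The erythroid list (9 genes matched, globins among them) summed to 288 to 768.2 CPM in mutant LT-HSC, against 28790, 5572 and 8617 CPM in control LT-HSC replicates 1, 2 and 3 and 451.8 CPM in replicate 4. The monocyte and macrophage list of 12 genes summed to 32.3 to 40.4 CPM in mutant LT-HSC, against 644.7, 285.5 and 208.6 CPM in those 3 control libraries and 34.3 CPM in replicate 4. The eosinophil, basophil and mast cell list of 10 genes summed to 3.43 to 14.1 CPM in mutant LT-HSC, against 1185, 333.4 and 166.6 CPM in the 3 and 7.33 CPM in replicate 4. The B cell and antibody-secreting cell list of 12 genes summed to 150.9 to 337.9 CPM in mutant LT-HSC, against 1359, 312.4 and 1467 CPM in the 3 and 66.6 CPM in replicate 4. In MPP3 libraries this list summed to 3985 to 38620 CPM, and the eosinophil, basophil and mast cell list to 112.1 to 421 CPM. The T and NK cell list of 12 genes summed to 26.1 to 34.2 CPM in mutant LT-HSC, against 46.0, 40.6 and 35.5 CPM in the 3 and 29.5 CPM in replicate 4. Ly6g, the defining surface marker of mouse neutrophils, had 0.401, 0.575 and 0.114 CPM in mutant LT-HSC replicates 1 to 3. It had 2.86, 3.21 and 1.64 CPM in the 3, and 0 in replicate 4. Its levels were low in the 3 but above those of all other libraries, the next being control MPP4 replicate 2 at 1.25 CPM. The stem cell list of 12 genes ran the other way, at 2049 to 2368 CPM in mutant LT-HSC, against 1098, 1508 and 1661 CPM in replicates 1, 2 and 3 and 1968 CPM in replicate 4. The part of other cells in the high levels of the late neutrophil genes was not tested.

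Sequence upstream of the genes is shown because most of them varied together across libraries, as described further on, and because C/EBP epsilon is known to drive secondary granule genes through C/EBP sites. RefSeq promoters of GRCm38.p6 were found for 9 of the 10 genes, S100a8, S100a9, Ngp, Camp, Ltf, Lcn2, Cxcr2, Retnlg and Mmp8. In the 250 bases before the start, a C/EBP-type motif, TTGCNNAA on either strand (read as TTNNGCAA on the other), was found in 6 of the 9, S100a9, Ngp, Ltf, Lcn2, Retnlg and Mmp8. The same motif was in 9.6% of 32851 promoters of that length. A PU.1-type motif, GAGGAA on either strand, was in 5 of the 9, S100a8, Ltf, Lcn2, Cxcr2 and Mmp8, and in 23.3% of all promoters, and no match overlapped one of the other motif. These are matches of letters, not tested sites, and no match says only that those letters are not in the window. Ngp held 2 C/EBP-type matches, 138 and 11 bases before the start, and only the first is shown. Lcn2 is not shown, because its window lies inside the annotated gene. The sequences around the match run 5′ to 3′ on the gene's strand, with the C/EBP-type match in capitals, for S100a9 (chr3:90695924-90695971, minus strand), Ngp (chr9:110419644-110419703, plus), Ltf (chr9:111019191-111019250, plus), Retnlg (chr16:48872358-48872395, plus) and Mmp8 (chr9:7558384-7558428, plus).
S100a9: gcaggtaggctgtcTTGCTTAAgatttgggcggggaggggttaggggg
Ngp: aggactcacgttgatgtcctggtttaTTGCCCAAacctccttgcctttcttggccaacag
Ltf: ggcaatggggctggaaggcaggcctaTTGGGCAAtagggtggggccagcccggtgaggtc
Retnlg: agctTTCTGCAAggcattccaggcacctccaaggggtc
Mmp8: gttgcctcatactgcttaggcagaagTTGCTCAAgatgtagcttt

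S100a8 and S100a9 encode the subunits of calprotectin, a calcium-binding alarmin that fills the neutrophil cytosol (GRCm38 chromosome 3, at 90668978 to 90670035 on the plus strand and 90692632 to 90695721 on the minus strand). S100a8 had 17.1, 67.2 and 5.83 CPM in mutant LT-HSC replicates 1 to 3, against 2258, 583 and 348.6 CPM in control LT-HSC replicates 1 to 3 and 3.67 CPM in replicate 4. S100a9 had 30.7, 132.2 and 15.3 CPM in mutant LT-HSC, against 3926, 1080, 436.4 and 3.81 CPM in control LT-HSC. For both genes 3 control libraries lay above all mutant ones and the remaining control library lay below them, so the groups overlapped. The log2 difference, mutant minus control, was -4.73 ± 2.14 (SE) for S100a8 and -4.52 ± 2.21 for S100a9, with adjusted p = 0.661 and 0.685 in edgeR. In the progenitors S100a9 had 45.8, 174.3, 6.77 and 4.71 CPM in mutant MPP3 replicates 1 to 4, against 74.5, 56.3 and 33.1 CPM in control MPP3. It had 3.58, 2.38, 90.7 and 38.3 CPM in mutant MPP4, against 11.9, 39.4, 8.11 and 32.0 CPM in control MPP4. Mutant libraries lay on both sides of the control libraries in each.

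The balance of the pair also varied. The count of S100a8 over that of S100a9 averaged 1.90 ± 0.920 in mutant MPP3 (n = 4) and 1.03 ± 0.210 in control MPP3 (n = 3). It averaged 0.483 ± 0.0919 in mutant LT-HSC (n = 3) and 0.719 ± 0.199 in control LT-HSC (n = 4). S100a8 had more counts than S100a9 in 3 of 4 mutant and 2 of 3 control MPP3 libraries, but in none of the 7 LT-HSC libraries. These ratios were not tested.

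The secondary granule genes gave the same picture in LT-HSC. Ngp encodes neutrophilic granule protein (chromosome 9, 110419747 to 110423012, plus strand). It had 43.4, 135 and 24.4 CPM in mutant LT-HSC, against 3105, 1108, 386.7 and 29.8 CPM in control LT-HSC (log2 difference -4.10 ± 1.71 SE, adjusted p = 0.633 in edgeR). Ltf encodes the iron-binding protein lactoferrin (chromosome 9, 111019271 to 111042767, plus strand). It had 23.4, 26.5 and 6.86 CPM in mutant LT-HSC, against 590.4, 251.1, 82.5 and 2.68 CPM in control LT-HSC. Lcn2 encodes lipocalin-2, which binds bacterial siderophores (chromosome 2, 32384633 to 32388252, minus strand). It had 26.4, 40.1 and 3.66 CPM in mutant LT-HSC, against 703.4, 381.8, 164.7 and 3.24 CPM in control LT-HSC. Camp encodes the antimicrobial cathelicidin (chromosome 9, 109847379 to 109849617, minus strand). It had 1.30, 10.1 and 0.686 CPM in mutant LT-HSC, against 619.2, 137.4, 61.1 and 1.27 CPM in control LT-HSC. Camp had the most negative log2 difference of the 10 genes there, -5.67 ± 2.26 (adjusted p = 0.618 in edgeR). In each of these 4 genes control replicate 4 lay among or below the mutant libraries.

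Outside LT-HSC the secondary granule genes ranged widely within groups. Ngp had 12.3, 89.2, 44.3 and 274.3 CPM in mutant ST-HSC replicates 1 to 4, against 97.9, 18.1 and 61.7 CPM in control ST-HSC. It had 71.6, 140.4, 8.60 and 0 CPM in mutant MPP3, against 48.3, 63.4 and 28.5 CPM in control MPP3. It had 3.29, 0.376, 71.7 and 55.0 CPM in mutant MPP4, against 0.819, 43.8, 3.00 and 21.1 CPM in control MPP4. The mutant libraries held both the highest and the lowest Ngp level in all 3 of these populations. Camp was at 0 in 5 libraries, all of them mutant: replicate 1 of ST-HSC, replicates 3 and 4 of MPP3 and replicates 1 and 2 of MPP4. All 5 carry the number 1702 or 1704, and no mutant library with 1808 or 1819 was at 0. Mutant 1704 had 0.686 CPM in LT-HSC and 8.83 CPM in ST-HSC. Control MPP4 replicate 1 had 0.137 CPM, under the floor. Ltf reached 45.7 CPM in mutant ST-HSC replicate 4 and was at 0 in mutant MPP3 replicate 4, mutant MPP4 replicate 2 and control MPP4 replicate 1.

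Retnlg, Mmp8 and Mmp9 were the lowest genes by mean CPM in control LT-HSC. Retnlg encodes resistin-like gamma, a secreted protein of mature neutrophils (chromosome 16, 48872621 to 48874496, plus strand). It had 6.11, 7.83 and 1.72 CPM in mutant LT-HSC, against 226.3, 144.9, 66.4 and 2.82 CPM in control LT-HSC (log2 difference -4.40 ± 1.51 SE, adjusted p = 0.540 in edgeR). Mmp8 encodes neutrophil collagenase, stored in secondary granules (chromosome 9, 7558456 to 7568485, plus strand). It had 6.01, 17.7 and 1.72 CPM in mutant LT-HSC, against 207.3, 91.8, 66.2 and 0.282 CPM in control LT-HSC. Mmp9 encodes gelatinase B, the marker of gelatinase granules (chromosome 2, 164940780 to 164955850, plus strand). It had 3.21, 11.9 and 1.14 CPM in mutant LT-HSC, against 154.5, 78.8, 41.2 and 0.423 CPM in control LT-HSC. In MPP4 Retnlg had 0, 0, 3.63 and 5.21 CPM in mutant libraries, against 4.78, 9.02, 4.80 and 12.7 CPM in control libraries. That was the most negative of the 10 differences in MPP4, at -1.80 ± 1.00 on the log2 scale (adjusted p = 0.999 in edgeR), with overlapping libraries.

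Cxcr2 differed from the other 9 genes. It encodes the receptor for CXCL1 and related chemokines that draws mature neutrophils out of the marrow, and it is also known from stem and progenitor cells (chromosome 1, 74153989 to 74161246, plus strand). It had 55.6, 43.5 and 49.6 CPM in mutant LT-HSC, against 277.6, 240.9, 137.3 and 56.9 CPM in control LT-HSC. It was the sole gene of the 10 whose mutant LT-HSC libraries all lay below the controls, an arrangement found for 3.44% of the 13922 genes tested. Its log2 difference was -1.85 ± 0.49 SE, with an unadjusted p of 0.00546 and an adjusted p = 0.391 in edgeR. In mutant ST-HSC it had 56.2, 64.8, 79.7 and 42.5 CPM, against 50.4, 61.2 and 71.6 CPM in control ST-HSC. In MPP3 it had 66.9, 61.8, 67.5 and 46.5 CPM in mutant libraries, against 77.4, 44.4 and 56.7 CPM in control libraries. In MPP4 it had 70.0, 47.6, 52.7 and 55.2 CPM in mutant libraries, against 49.2, 39.7, 56.5 and 39.3 CPM in control libraries. Across all libraries Cxcr2 spanned 7.06-fold between lowest and highest, while Lcn2 spanned 5611-fold and S100a9 1648-fold, and 6 of the other genes were at 0 in at least 1 library.

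Among the 9 other genes, the Pearson r of log2 CPM between pairs ran from 0.67 to 0.95 with a median of 0.84 over 29 libraries (36 pairs). Cxcr2 had r of 0.54 to 0.69 with the 9 and a Spearman rho of 0.17 to 0.33. Without the 4 control LT-HSC libraries, the 36 pairs had a median r of 0.73 over 25 libraries, while Cxcr2 had a median of -0.03. These values describe libraries that share groups, label numbers and depth, and carry no test. Outside control LT-HSC, Cxcr2 stayed between 39.3 and 79.7 CPM while the summed CPM of the other 9 genes ran from 7.40 to 637.6.

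**Figure D2:**
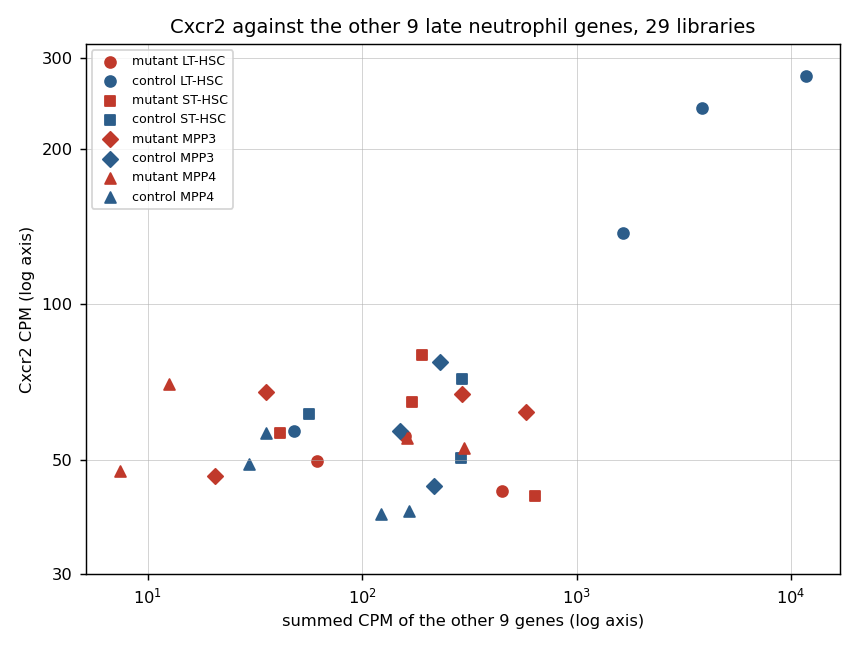
Cxcr2 level (CPM, log axis) against the summed CPM of the other 9 late neutrophil genes (log axis) in 29 libraries, mutant red and control blue, with a marker shape for each population. Only control LT-HSC replicates 1, 2 and 3 exceed 100 CPM of Cxcr2, at 277.6, 240.9 and 137.3.

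Levels between genes are compared per kilobase of exon. In control LT-HSC the group means were 2608 CPM per kilobase for S100a9, 1150 for S100a8, 947.3 for Ngp, 270.1 for Camp and 185.7 for Retnlg. They were 119.4 for Lcn2, 67.2 for Ltf, 58.5 for Cxcr2, 37.7 for Mmp8 and 19.4 for Mmp9. In control MPP4 the order differed: S100a9 led at 43.8 CPM per kilobase, then S100a8 at 19.5, Cxcr2 at 15.1, Ngp at 14.1 and Retnlg at 13.2. The rank of Cxcr2 by these means depended on the libraries: 7, 6 and 6 of the other genes were above it in control LT-HSC replicates 1, 2 and 3, but in replicate 4 only Ngp was, at 24.4 CPM per kilobase beside 18.6 for Cxcr2. In the 4 control MPP4 libraries 0 to 4 genes were above it.

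The comparison of mutant with control within each population was then read from fits over all genes. In LT-HSC all 10 late neutrophil genes were lower in the mutant, with a median log2 difference of -3.92 against 0.00 over all genes, and 0 passed an adjusted p under 0.05 in edgeR (0% of the 13922 genes tested). An unadjusted p under 0.05 was reached by 2, Cxcr2 and Retnlg, where 5.60% of all genes were lower at that level. DESeq2 called 3 of the 10 genes and 2.10% of all genes. Without control LT-HSC replicate 4, edgeR called 2.82% of all genes (384, where it called 0 with that library) and 2 of the 10, Cxcr2 at -2.13 (adjusted p = 0.000499) and Retnlg at -4.79 (adjusted p = 0.00462). The other neutrophil list was lower in 25 of 25 genes tested, with a median of -4.57, and the erythroid list in 9 of 9, with a median of -4.59, and no gene of either passed. Genes of monocytes and macrophages (11 of 11), of B cells and antibody-secreting cells (9 of 9, with a median of -2.81) and of eosinophils, basophils and mast cells (7 of 8) were mostly lower too. Of the T and NK cell genes tested, 3 of 5 were lower. The filter keeps a gene that is high in either group, so genes high only in control LT-HSC enter there and come out lower. Of the 26 other neutrophil genes 25 were tested in LT-HSC, against 12, 18 and 11 in ST-HSC, MPP3 and MPP4. For the eosinophil, basophil and mast cell list it was 8, against 2, 9 and 4. Counts of lower genes in such lists were thus partly fixed in advance. The erythroid list had 9 genes tested in each population. The part of other cell types in the result was not tested.

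In ST-HSC, 5 of the 10 genes were higher and 5 lower in the mutant, with a median log2 difference of 0.07. In MPP3 all 10 were higher, with a median of 0.33, from 0.02 ± 0.265 for Cxcr2 to 1.09 ± 1.76 for Camp. In MPP4 6 were higher and 4 lower, with a median of 0.41. None passed in edgeR in these 3 populations, where 0%, 0.00737% and 0% of all genes did. DESeq2 called 0 of the 10 in each, where it called 0%, 0.0148% and 0.0382% of all genes. None had an unadjusted p under 0.05 either, where 3.73%, 2.18% and 3.10% of all genes did. In MPP3 the direction of every one of the 10 genes turned in at least 1 fit that left out a library, so all 10 being higher is not a stable count. Among the 4 populations only LT-HSC, with its high control libraries, had a negative median, at -3.92. Averaged over the 4 populations, the mutant effect was negative for 10 of 10 genes with a median of -0.87, and 0 passed in edgeR or in limma (0.0189% of all genes passed in edgeR). An unadjusted p under 0.05 (7.51% of all genes) was found for Retnlg, at -1.72 ± 0.641 (adjusted p = 0.478 in edgeR), and Cxcr2, at -0.38 ± 0.156 (adjusted p = 0.524). An F test in edgeR asked whether the 4 mutant effects were unequal, and it called 0 of the 10 genes and 0% of all genes. Cxcr2 had an unadjusted p of 0.000154 there (adjusted p = 0.351 in edgeR), 5.82% of all genes were under 0.05 unadjusted, and the other 9 were at 0.0541 or above.

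**Figure D3:**
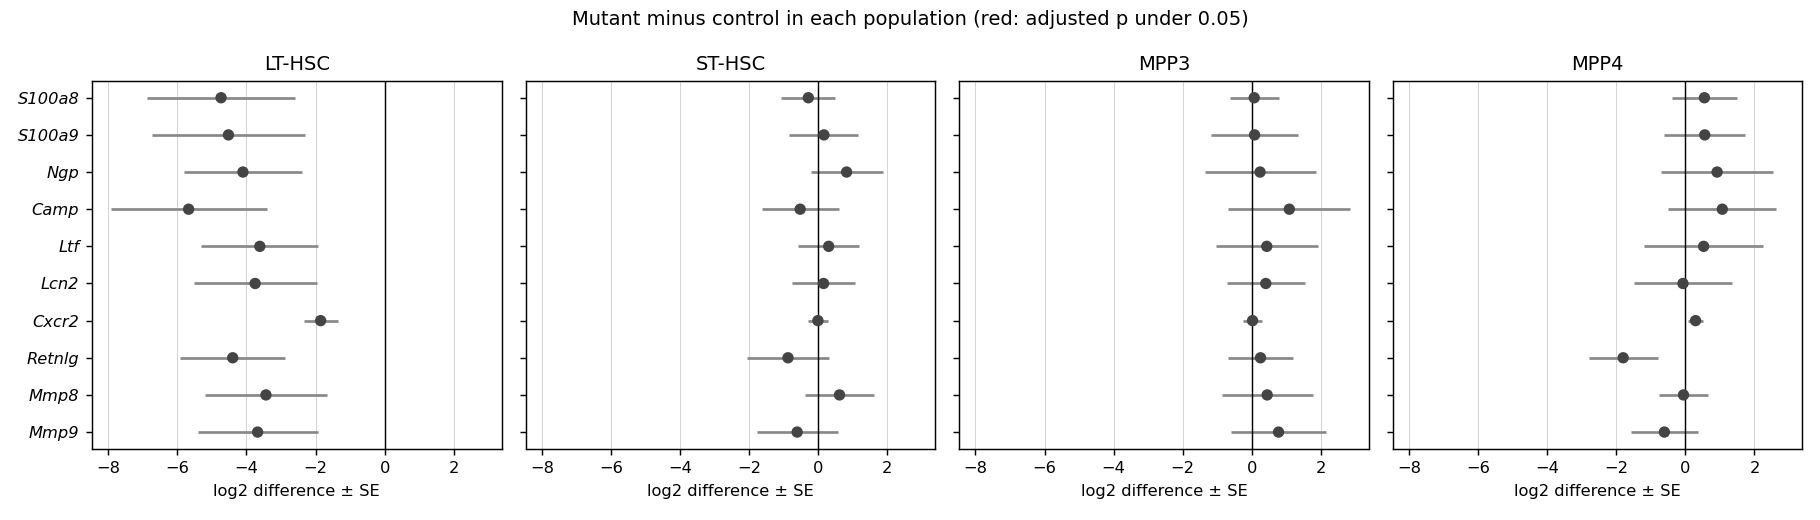
Log2 difference, mutant minus control, of each late neutrophil gene in 4 populations, with bars of 1 SE from edgeR. In LT-HSC all 10 points are negative, with a median of -3.92, in the other populations they lie around 0, and none has an adjusted p under 0.05.

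The mutant libraries split by their label numbers. The 9 genes without Cxcr2 summed to 157.6 and 448.4 CPM in mutant LT-HSC with numbers from 18 (1808 and 1819) and to 61.3 CPM in the one from 17 (1704). In mutant ST-HSC they summed to 190.7 and 637.6 CPM for 1808 and 1819, and to 41.3 and 170.8 CPM for 1702 and 1704. In mutant MPP3 the sums were 293.5 and 578.5 CPM for 1808 and 1819, and 35.5 and 20.6 CPM for 1702 and 1704. In mutant MPP4 they were 298.2 and 162.6 CPM for 1808 and 1819, and 12.6 and 7.40 CPM for 1702 and 1704. The sum was thus higher for 1808 and 1819 in all 4 populations. Gene by gene, the libraries with numbers from 18 all lay above those from 17 for 9 of the 9 genes in mutant LT-HSC, MPP3 and MPP4, and for 4 of 9 in mutant ST-HSC. The same arrangement held for 32.7%, 15.6%, 14.7% and 15.5% of all genes tested in those populations in that order. Since the 9 genes move together, these counts are not 9 separate observations.

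**Figure D4:**
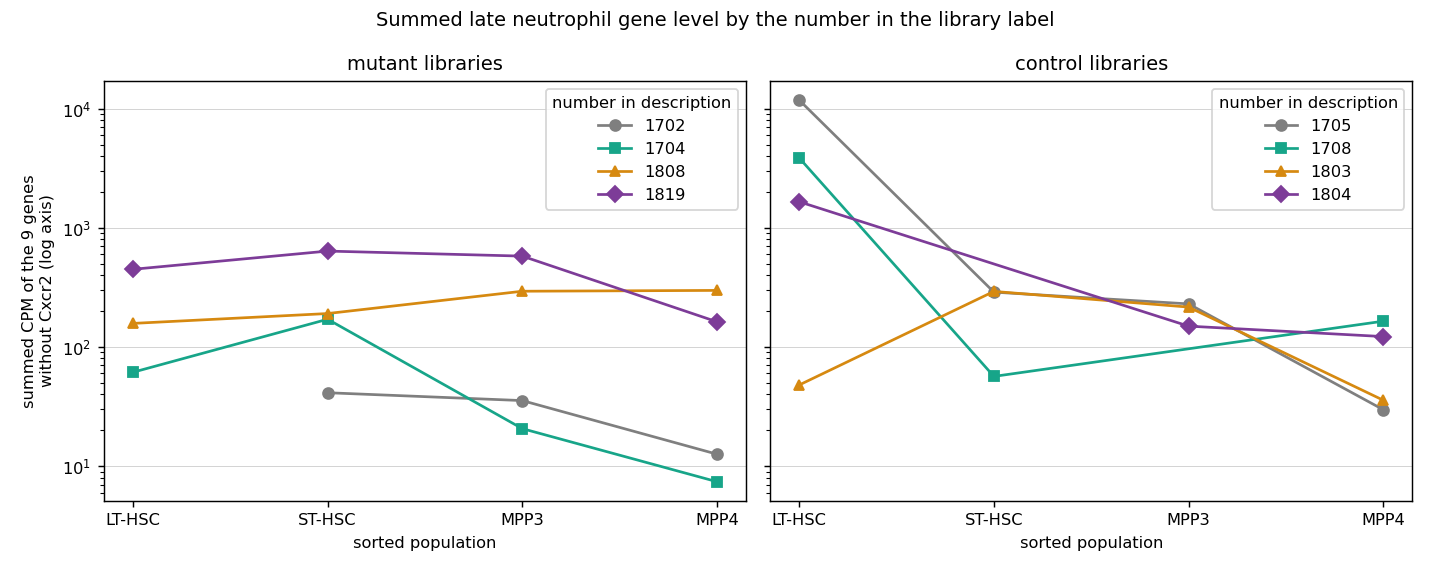
Summed CPM (log axis) of the 9 late neutrophil genes without Cxcr2 in each sorted population, mutant libraries left and control libraries right, with lines joining libraries that share a number in their description (a population without a library of that number is passed over). Among mutants, 1808 and 1819 lie above 1702 and 1704 in every population, and among controls the numbers cross.

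Among controls, the sums were higher for numbers from 18 than for those from 17 only in ST-HSC, and there by little over 1705. In ST-HSC 1803 had 292.5 CPM for the 9 genes, and 1705 and 1708 had 288.4 and 56.6 CPM. There 1803 lay above both for 5 of the 9 genes. The count was 0 of 9 in control LT-HSC, 1 of 9 in control MPP3 and 0 of 9 in control MPP4. The share of all genes arranged so was not computed for controls, and these counts were not read as a split. In MPP3 the control from 17 had the highest sum. In LT-HSC the controls with numbers from 17 were the higher ones, at 11790 and 3857 CPM for 1705 and 1708, against 1654 and 47.96 CPM for 1804 and 1803. In MPP4 the controls 1708 and 1804 had 164.5 and 122.2 CPM, and 1705 and 1803 had 29.8 and 35.7 CPM. The library low in LT-HSC, number 1803, was not low in ST-HSC or in MPP3, where it had 216 CPM, beside 229.8 CPM for 1705 and 149.5 CPM for 1804. Erythroid genes moved with the mutant split in MPP3, at 2334 and 2328 CPM for 1808 and 1819 and 599.4 and 1373 CPM for 1702 and 1704. They did so in MPP4 as well, at 817.5 and 667.2 CPM for 1808 and 1819 and 194.6 and 454.9 CPM for 1702 and 1704, and in LT-HSC, at 480.9 and 768.2 CPM for 1808 and 1819 and 288 CPM for 1704. In ST-HSC the highest erythroid sum was in 1704, at 3391 CPM. Genes of B cells and antibody-secreting cells ran against it in MPP3, at 9476 and 5254 CPM for 1808 and 1819 and 16410 and 38620 CPM for 1702 and 1704. In mutant LT-HSC, ST-HSC and MPP4 the B cell sums of the libraries from 18 and from 17 overlapped, as in MPP4 at 744 and 332.8 CPM for 1808 and 1819 and 578.5 and 329.1 CPM for 1702 and 1704. The part of other cells in the split was not tested.

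Mutant and control were therefore also set side by side within numbers from 17 and within numbers from 18, as log2 ratios of group means with 1 CPM added. For the 9 genes without Cxcr2, the median in LT-HSC was -6.38 within numbers from 17 (1 mutant, 2 control libraries) and -1.41 within numbers from 18 (2 each), and all 9 were lower in the mutant in both. In MPP3 the median was -2.60 within numbers from 17 (2 mutant, 1 control) and 1.35 within numbers from 18 (2 each). The 9 genes were all lower in the mutant in the one and all higher in the other. In MPP4 the medians were -2.52 and 1.10 (2 each), with 9 of 9 genes lower within 17 and 8 of 9 higher within 18. In ST-HSC they were -0.89 (2 each) and 0.13 (2 mutant, 1 control), with 8 of 9 lower within 17 and 6 of 9 higher within 18. The mutant difference in MPP3 and MPP4 thus had opposite signs within 17 and within 18, and it was not tested within them. These signs rest on 1 or 2 libraries per group. They use the same mutant values as the split above, so they are not a further observation.

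The control populations were compared in 1 fit of 14 control libraries, in which 3 of the 4 comparisons share the LT-HSC libraries that stand apart. Set against LT-HSC, all 10 late neutrophil genes were lower in ST-HSC (median log2 difference -4.16), in MPP3 (-4.44) and in MPP4 (-4.94), where the medians of all genes were 0.02, -0.02 and -0.01. Cxcr2 was lower in MPP4 than in LT-HSC, at 46.2 ± 8.23 and 178.1 ± 100 CPM (SD, n = 4 each), by -1.94 ± 0.351 on the log2 scale (adjusted p = 0.00325 in edgeR). It was the one gene of the 10 past the threshold there, where 4.20% of 14937 genes passed, and its MPP4 libraries all lay below the LT-HSC ones, as for 4.98% of genes. Its adjusted p stayed at or under 0.021 in the 8 fits that each left out 1 library. The other 9 genes had adjusted p-values of 0.0517 (S100a8) to 0.135 (Mmp8). All 10 had an unadjusted p under 0.05, as did 8.97% of genes in that direction, and all 10 passed without control LT-HSC replicate 4, in DESeq2 and in edgeR without robust estimation of the spread, where 5.01%, 7.12% and 4.49% of all genes passed.

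In ST-HSC and in MPP3 0 of the 10 genes passed against LT-HSC in edgeR (0.174% and 1.46% of all genes did), although all 10 were lower with an unadjusted p under 0.05 in both, as were 5.68% and 7.20% of genes. No gene of the 10 had its libraries apart in either comparison, whereas 4.00% and 6.43% of genes lay wholly below LT-HSC. Cxcr2 was nearest in MPP3, at 59.5 ± 16.7 CPM against 178.1 ± 100 in LT-HSC (-1.57 ± 0.384, adjusted p = 0.0505 in edgeR). DESeq2 called 7 in ST-HSC, with 2.15% of all genes, and 10 in MPP3, with 3.75%. Without control LT-HSC replicate 4, edgeR called 3 in ST-HSC (Cxcr2, Retnlg and Mmp9, with 1.47% of all genes) and 4 in MPP3 (the same 3 and Mmp8, with 1.51%). Without robust estimation it called 1 in MPP3, with 1.39% of all genes.

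**Figure D5:**
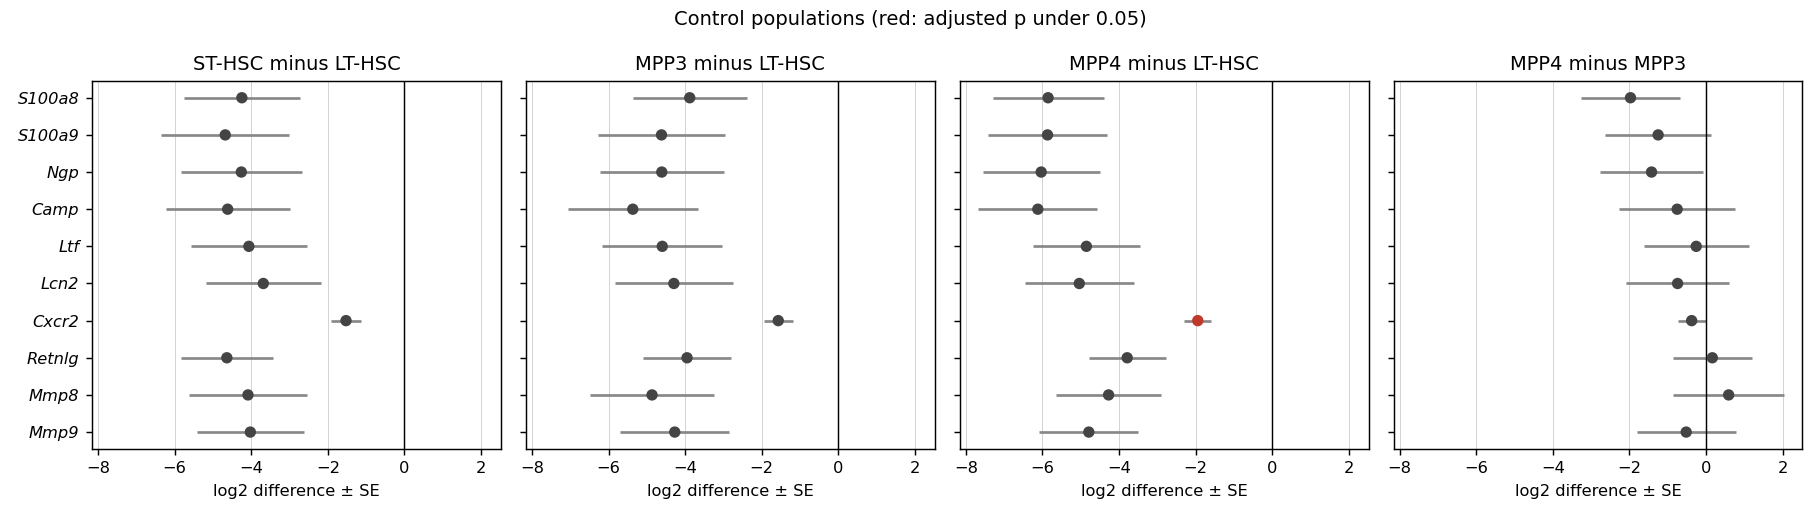
Log2 difference between control populations for each late neutrophil gene, with bars of 1 SE from edgeR, where red marks an adjusted p under 0.05. All 10 genes are lower in ST-HSC, MPP3 and MPP4 than in LT-HSC, and Cxcr2 in MPP4 (-1.94 ± 0.351) is the one past the threshold.

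Between the progenitors, 8 of the 10 genes were lower and 2 higher in control MPP4 than in control MPP3. Of the 10, 0 passed in edgeR (1.14% of all genes did), with 0 at an unadjusted p under 0.05 (11.1% of all genes) and 0 in DESeq2 (3.28% of all genes). S100a8 had 8.60, 20.9, 5.71 and 18.8 CPM in control MPP4, against 59.3, 61.1 and 39.9 CPM in control MPP3. It was the one gene of the 10 whose libraries did not overlap, as for 6.37% of genes lower in MPP4, and its log2 difference was -1.97 ± 1.30 (adjusted p = 0.681 in edgeR).

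Primary granule genes, made at the earlier promyelocyte stage, had another distribution across populations. The list of 7 (Mpo, Elane, Prtn3, Ctsg, Ms4a3, Ctsc and Srgn) summed to 839.6 to 1416 CPM in mutant MPP4 and 1108 to 1507 CPM in control MPP4. It summed to 4745 to 11780 CPM in mutant MPP3 and 6953 to 10080 CPM in control MPP3. In control MPP3 against LT-HSC all 7 were higher, 2 of them past the threshold in edgeR (1.46% of all genes were), Prtn3 (3.05 ± 0.331, adjusted p = 5.2e-05) and Srgn (0.90 ± 0.204, adjusted p = 0.0296), while all 10 late genes were lower. In control MPP4 against MPP3 all 7 were lower and 3 passed (1.14% of all genes did), Elane (-7.72 ± 1.31, adjusted p = 0.021), Prtn3 and Ms4a3. The highest primary granule sum, 11780 CPM in mutant MPP3 replicate 1, stood beside a late neutrophil sum of 360.4 CPM. In control MPP4 against LT-HSC 4 of the 7 were higher and 3 lower, and Ms4a3 passed as lower (-6.66 ± 1.44, adjusted p = 0.0171 in edgeR), as 4.20% of all genes passed. In control LT-HSC replicate 1 the late genes summed to 12070 CPM and the primary granule genes to 1312 CPM, with Mpo, the gene of myeloperoxidase, at 737.3 CPM. Within LT-HSC Mpo was high in the same libraries as the late genes. It had 246, 79.2 and 5.08 CPM in control replicates 2, 3 and 4, and 2.53 to 11.2 CPM in mutant libraries.

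Of the 26 other neutrophil genes, 25 were tested in the control fit. A gene high only in control LT-HSC passes the filter through that group, so a lower level elsewhere is partly built in for such genes. In MPP4 against LT-HSC all 25 were lower and 4 passed in edgeR, as did 4.20% of all genes. They were Cebpe, the gene of the C/EBP epsilon factor of secondary granule genes (-6.26 ± 1.39, adjusted p = 0.0118), Fpr1, a formyl peptide receptor gene (-5.70 ± 1.40, 0.0221), Trem1, an activating receptor gene (-5.71 ± 1.02, 0.00294), and Cxcl2, a chemokine gene whose product binds Cxcr2 (-3.40 ± 0.718, 0.0106). In MPP3 against LT-HSC 24 of 25 were lower and Cxcl2 passed, as did 1.46% of all genes (-4.22 ± 0.852, adjusted p = 0.0176 in edgeR). In MPP4 against MPP3 Cebpe passed, as did 1.14% of all genes, at 0.048 ± 0.0959 CPM (n = 4) against 6.07 ± 3.88 CPM (n = 3), with adjusted p = 0.0266 in edgeR. In ST-HSC against LT-HSC all 25 were lower and 0 passed (0.174% of all genes did). An unadjusted p under 0.05 in edgeR was reached by 20, as by 5.68% of all genes in that direction. The 4 most abundant of the list were Lyz2, Csf3r, Itgam and Cybb, which stem cells, monocytes or macrophages are also known to express. Csf3r, the G-CSF receptor gene, averaged 97.6 ± 17.8 CPM in mutant LT-HSC (n = 3) and 251 ± 118 in control LT-HSC (n = 4), and between 195.4 and 293.5 CPM in the 6 other groups.

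The 10 genes outside the set whose log2 CPM followed the mean of the late neutrophil genes most closely over 29 libraries had Pearson r of 0.78 to 0.86. Cd177, a neutrophil surface glycoprotein gene, led at 0.86, followed by Chil3, a chitinase-like protein gene, at 0.84 and Itgb2, the gene of the beta-2 integrin chain, at 0.83. Then came 6430548M08Rik at 0.82, C5ar1, the complement C5a receptor gene, at 0.80, and the globin gene Hbb-bt at 0.80. Cd300lf, the globin gene Hba-a1, Itgb2l and Mmp25 had 0.78 each. Globin genes have near-identical copies between which reads are shared, so their single values are uncertain. All 10 were highest in control LT-HSC replicate 1, and without control LT-HSC the r values ran from 0.45 for Mmp25 to 0.75 for Cd177 over 25 libraries.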

How the data were processed

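The deposited values were expected counts per gene of 29 RNA-seq libraries. The GRCm38 build, edgeR 3.5.3, SAMtools 0.1.18, the aligner Bowtie2 2.2.0 and RSEM 1.2.12 are named, without their roles, per the submitters' processing notes. The counts were whole numbers as deposited, so rounding changed none. Where RSEM did the counting, it divides reads that map to more than one gene among those genes. RNA was isolated with a column kit and is labelled polyA, per the labels' protocols. Symbols and positions came from GENCODE for GRCm38, which matched 37607 identifiers and left 1317 unmatched. No annotated gene overlapped any of the 10 genes, and 9 of 10 erythroid markers were matched.

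All comparisons were fitted over all genes with the robust quasi-likelihood test of edgeR 4.0.16, run in R 4.3.3 after filterByExpr (10 counts, 15 in total) and TMM scaling, with Benjamini-Hochberg adjustment and a threshold of 0.05. All 10 genes passed the filter in every fit. Mutant comparisons used the libraries of 1 population, control populations 1 fit of 14 libraries, and the average and the F test 8 group means over 29 libraries. Log2 CPM used a prior count of 2. The fits were tested on simulated counts. Replicates of a group differed by more than sampling noise in all 39 pairs (chi-square divided by degrees of freedom, 20.3 to 72.4). Alternatives were RLE scaling, no filter, DESeq2 1.42.0, limma 3.58.1, blocks, a covariate for the leading digits of the label number, each library left out and, added after seeing the data, no robust estimation.

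The members, lists and naming rule (all 10 genes, other neutrophil genes that passed or were the 4 most abundant, and the 10 genes of most like pattern) were chosen with earlier results of these data known.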

Additional observations from a re-analysis of the deposited data

Results flagged for a closer look

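Of 50 groups of 4 libraries examined for the 10 genes, 2 held a library whose gap to the nearest other one exceeded Dixon's 95% critical share of the group's range, and chance gives about 1 such group in 20. Camp in mutant MPP3 replicate 2 had 35.8 CPM, against 5.93, 0 and 0 CPM in the other mutant MPP3 libraries. Lcn2 in mutant ST-HSC replicate 4 had 78.6 CPM, against 2.25, 15 and 10.6 CPM in the other mutant ST-HSC libraries. Both libraries carry the number 1819 in their labels.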

How the results depend on the processing

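The members' counts of calls depended on control LT-HSC replicate 4 and on the tool, and the cause was not tested. DESeq2 called 3 late neutrophil genes and 292 genes in all in mutant LT-HSC, 7 and 308 in control ST-HSC against LT-HSC, 10 and 558 in MPP3 against LT-HSC, 10 and 1061 in MPP4 against LT-HSC, and in all genes 2 in mutant MPP3, 5 in mutant MPP4 and 469 in MPP4 against MPP3. Without the low-count filter all-gene calls were 10 in mutant LT-HSC, 1 in mutant MPP4, 52 in ST-HSC against LT-HSC and 1 for the average. Without robust estimation of the spread the late neutrophil calls were 1 in MPP3 and 10 in MPP4 against LT-HSC, and all-gene calls were 15 in ST-HSC against LT-HSC and 0 in mutant MPP3. RLE scaling changed none of these counts by over 1.5 times. Pairing was checked by title replicate number between mutant and control, and by description number between control populations. Deviations of same-numbered libraries correlated at -0.175 to 0.15, and in no comparison were all pairs over 0.1. The check did not cover mutant populations that share a description number. In mutant LT-HSC 0 of 6 libraries correlated best with their own number, in the other comparisons 1 of 8 to 4 of 8. With the replicate block on the title number, 7 late neutrophil genes and 398 genes in all were called in mutant LT-HSC. No mutant LT-HSC library has title number 4, so the block takes up control LT-HSC replicate 4 whole. That fit in effect leaves the library out and pairs libraries of unlike description numbers. Without that library and without a block, 2 and 384 were called. The block likewise takes up replicate 4 of mutant ST-HSC and of mutant MPP3. A random block in limma called 0 genes for the average. The covariate for the leading digits called 0 genes in mutant MPP3. With the replicate block, the sign of the uncalled mutant difference turned in MPP3 for S100a9 (-0.46), Camp (-0.15), Ltf (-0.22) and Retnlg (-0.13); in MPP4 for S100a8 (-0.43), S100a9 (-0.50), Camp (-0.064), Ltf (-0.25) and Lcn2 (0.48); in ST-HSC for S100a9 (-0.67), Ngp (-0.41), Ltf (-0.90), Lcn2 (-1.46) and Cxcr2 (0.13) (log2). With the leading digits of the number as a covariate, the sign of the uncalled mutant difference turned in MPP3 for S100a8 (-0.32), S100a9 (-0.88), Ngp (-0.80), Camp (-0.87), Ltf (-1.10), Lcn2 (-0.60), Retnlg (-0.41), Mmp8 (-0.90) and Mmp9 (-0.71); in MPP4 for S100a8 (-0.35), S100a9 (-0.55), Ngp (-0.36), Camp (-0.68) and Ltf (-1.17); in ST-HSC for S100a9 (-0.86), Ltf (-0.46) and Lcn2 (-0.62) (log2). Leaving out 1 library at a time gave these ranges. Late neutrophil genes called ran from 0 to 2 in mutant LT-HSC, 0 to 3, 0 to 4 and 1 to 10 in ST-HSC, MPP3 and MPP4 against LT-HSC. All genes called ran from 0 to 384 in mutant LT-HSC, 0 to 1 in mutant MPP3, 1 to 217 in ST-HSC against LT-HSC, 63 to 247 in MPP3 against LT-HSC, 367 to 741 in MPP4 against LT-HSC and 78 to 157 in MPP4 against MPP3. Log2 differences that turned sign when a library was left out, control MPP4 minus control MPP3, ran Ltf -0.67 to 0.14 and Retnlg -0.18 to 0.57. Log2 differences that turned sign when a library was left out, mutant minus control MPP3, ran S100a8 -0.55 to 0.40, S100a9 -1.53 to 0.46, Ngp -0.81 to 0.65, Camp -1.35 to 1.5, Ltf -1.19 to 0.85, Lcn2 -0.22 to 0.85, Cxcr2 -0.15 to 0.26, Retnlg -1.24 to 0.68, Mmp8 -0.49 to 1.04 and Mmp9 -1.13 to 1.19. Log2 differences that turned sign when a library was left out, mutant minus control MPP4, ran S100a8 -0.66 to 0.91, S100a9 -0.62 to 0.96, Camp -0.64 to 1.88, Ltf -0.61 to 0.94, Lcn2 -0.68 to 0.82, Mmp8 -0.57 to 0.29 and Mmp9 -1.64 to 0.21. Log2 differences that turned sign when a library was left out, mutant minus control ST-HSC, ran S100a8 -0.90 to 0.53, S100a9 -0.62 to 0.56, Ngp -0.30 to 1.41, Camp -1.32 to 0.25, Ltf -0.93 to 0.82, Lcn2 -1.38 to 0.62, Cxcr2 -0.17 to 0.13, Retnlg -1.45 to 0.090, Mmp8 -0.12 to 2.14 and Mmp9 -1.41 to 0.47. Among values of single genes, 944 kept their direction and side of the threshold, 64 passed it newly and 82 turned sign. Depth limits the low genes: 3 counts are 0.288 to 0.564 CPM.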
